A study of Homo sapiens with 6 samples.

Results

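Ccnb1ip1 and 8 further genes of meiotic crossing over were followed across 6 RNA sequencing libraries, of which 3 carry the label GFP and 3 the label GFP-CCNB1IP1. The 9 genes were taken by name, as Ccnb1ip1, Rnf212, Hfm1, Msh4, Msh5, Mlh3, Spo11, Dmc1 and Sycp1, and each matched 1 of the 53492 genes in the deposited tables. The cell line named for both groups is SH-SY5Y, which was derived from a human neuroblastoma and divides in culture. The GFP group was transfected with the vector pCS2-eGFP-N, which carries green fluorescent protein alone, and the GFP-CCNB1IP1 group with pCS2-eGFP-CCNB1IP1. The labels give no time after transfection, no share of cells that took up the vector and no statement that replicates came from separate cultures. The p-values therefore set each group difference against the spread among these samples only, and that spread may be technical. Values are FPKM, the fragments of a gene scaled by transcript length and library size, and genes are compared on that scale only.

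In meiosis, Spo11 cuts DNA on purpose, the recombinase Dmc1 pairs the broken end with the homologous chromosome, and the synaptonemal complex, whose transverse filament is Sycp1, holds the homologues together. A small share of the joint molecules is then chosen to become crossovers: the Msh4-Msh5 dimer clamps onto them, the helicase Hfm1 helps them form, Rnf212 and Ccnb1ip1 (HEI10) act as SUMO and ubiquitin ligases that decide which are kept, and Mlh3 is part of the nuclease that cuts them. Most of these genes are known for germ cells. Ccnb1ip1 was first named for its binding to cyclin B1 in dividing cells, and Mlh3 also works in mismatch repair outside meiosis.

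The gene identifiers in the tables are those of mouse, while the labels name a human line, and 0 of the 53492 identifiers matched a table of 62700 human genes. If the reads are human, levels and zeros would also depend on how closely each mouse gene matched them, which was not tested. The introduced CCNB1IP1, if it is the human gene, has no row of its own in these tables, and the level of mouse Ccnb1ip1 would not measure it. Of 10 sympathoadrenal neuroblastoma markers, 9 had a mean of at least 1 FPKM, the highest being the granule protein gene Chgb with a mean of 413.5 FPKM, and Dbh was below 1 FPKM with a mean of 0.666 FPKM. None of 10 germ cell markers had a mean of 1 FPKM; the highest mean was 0.508 FPKM, for Piwil2, and the highest single value was 1.12 FPKM, for Prm1 in GFP-CCNB1IP1 replicate 1. Tex101 and Mael were listed at 0 in every library. Of 6 fibroblast markers Pdgfra alone had a mean above 1 FPKM, at 1.89 FPKM. No macrophage marker had a mean of 1 FPKM, the highest being Cd68 at 0.570, but their summed level was 5.15 FPKM in GFP-CCNB1IP1 replicate 2, the highest of the 3 in its group, while the GFP libraries ranged from 0.621 to 0.842 FPKM. That library was also the shallowest, at 0.743 of the mean depth of the GFP libraries as read from the deposited intervals, against 0.950 to 1.06 in the other 5.

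Mlh3, Sycp1 and Msh5 were the 3 of 9 genes expressed at a mean of 1 FPKM or more; over all genes the share at that level was 24.7%, and among the 9 it was 33.3%. Ccnb1ip1, Msh4, Dmc1 and Spo11 were read at a trace, each with a mean below 0.1 FPKM, and Rnf212 and Hfm1 were listed at 0 in all 6 libraries. None of the 7 members that could be tested was called between the GFP-CCNB1IP1 and GFP libraries (limma), where 0% of all genes tested were. That does not show equal levels. The deposited tables give a lower and an upper bound for each value. The lower bound was above 0 in all 6 libraries for Mlh3, Sycp1 and Msh5 and was 0 in all 6 for the other 6 genes.

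**Figure D1:**
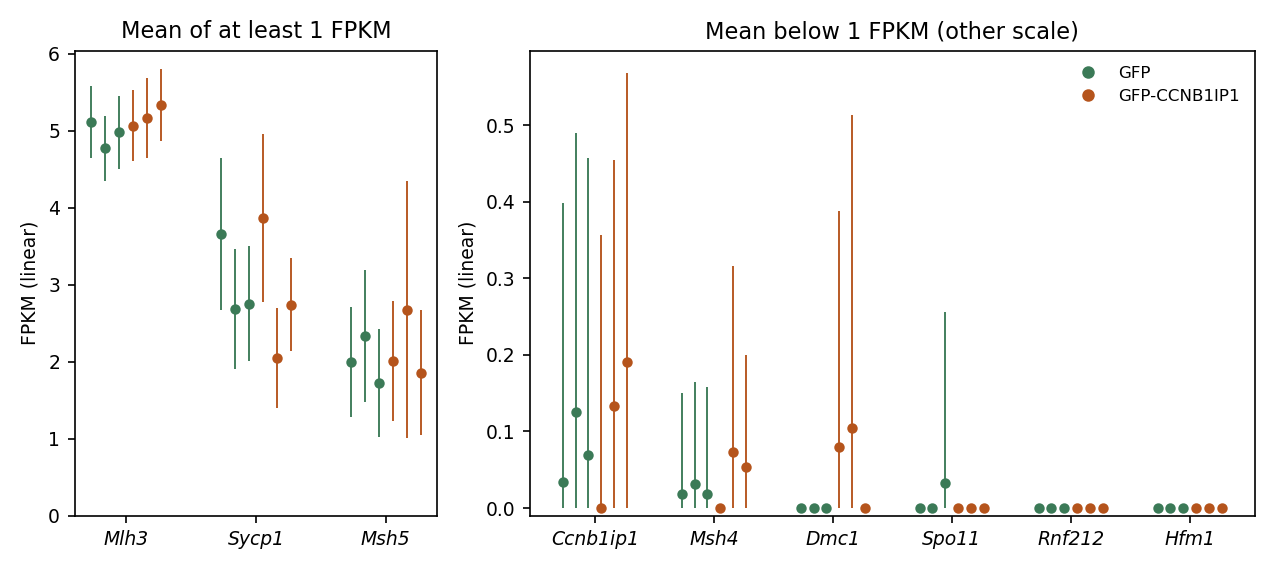
FPKM of the 9 genes in each library (points; green GFP, orange GFP-CCNB1IP1, replicates 1 to 3 from left to right), with the deposited lower and upper bounds as lines and a separate linear scale in each panel. Mlh3 lies between 4.77 and 5.33 FPKM in every library, Sycp1 and Msh5 lie lower and overlap each other, and the other 6 genes lie below 0.2 FPKM.

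Ccnb1ip1 (ENSMUSG00000071470.5, on chromosome 14 from 51026705 to 51045189, in a build that the sources used here do not give) is the mouse gene of the name on the vector. The species of the gene on the vector was not established, so this row may or may not measure it. Replicates 1 to 3 of the GFP group read 0.0334, 0.125 and 0.0698 FPKM, and those of the GFP-CCNB1IP1 group 7.36e-08, 0.133 and 0.191 FPKM. GFP-CCNB1IP1 replicate 3 was highest and replicate 1 of the same group lowest, so the GFP values lay inside the range of the other group. The highest deposited upper bound was 0.569 FPKM. Read as counting error alone, the deposited bounds correspond to at most 1.03 fragments behind any of these values. The difference on the log2(FPKM + 1) scale, GFP-CCNB1IP1 minus GFP, was 0.039 with a 95% interval of -0.143 to 0.221 (limma, adjusted p = 0.875). Without GFP-CCNB1IP1 replicate 3 the difference was -0.015. Its locus shares 284 bases with Rpph1, the RNA component of RNase P, which had a mean of 2.46 FPKM, and strand was not stated, so reads at that end cannot be assigned with certainty.

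Rnf212 and Hfm1, which work on the same joint molecules as Ccnb1ip1, gave no value above 0. Rnf212 (ENSMUSG00000055385.13, chromosome 5, 108877156 to 108922848) encodes the SUMO ligase that stabilises the Msh4-Msh5 dimer, and Hfm1 (ENSMUSG00000043410.17, chromosome 5, 106988058 to 107074187) the crossover helicase. Their deposited upper bounds were also 0. The tables hold no read counts, so no limit on their level can be given.

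Msh5 (ENSMUSG00000007035.16, chromosome 17, 35247581 to 35265721) and Msh4 (ENSMUSG00000005493.16, chromosome 3, 153562786 to 153611775) encode the subunits of 1 dimer and stood far apart. With GFP, Msh5 stood at 2.00, 2.34 and 1.73 FPKM, and with GFP-CCNB1IP1 at 2.01, 2.68 and 1.86 FPKM. Read as counting error alone, the deposited bounds correspond to 10.3 to 30.7 fragments behind these values. The highest value came from the shallowest library, GFP-CCNB1IP1 replicate 2, where the deposited bounds were widest, at 1.01 and 4.34 FPKM, and the groups overlapped. The difference of Msh5 was 0.07 on the log2(FPKM + 1) scale (95% interval -0.29 to 0.43, limma, adjusted p = 0.884). It was -0.04 without GFP-CCNB1IP1 replicate 2 and -8.82e-06 without GFP replicate 3.

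Msh4 read 0.0179, 0.0316 and 0.0188 FPKM with GFP, and 0, 0.0725 and 0.0537 FPKM with GFP-CCNB1IP1. All 6 values were below the lowest Msh5 value, 1.73 FPKM, and the implied fragments behind any Msh4 value were at most 0.539. The GFP values again lay between the lowest and highest values of the other group, with a difference of 0.03 on the log2(FPKM + 1) scale (95% interval -0.05 to 0.10, limma, adjusted p = 0.790).

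Mismatch recognition genes Msh3 and Msh6, of the same MutS family, were higher than Msh5. Msh3, which recognises larger loops, had a mean of 9.10 FPKM, and Msh6, which recognises single mismatches, 11.6 FPKM. The lowest library value of this pair was 8.04 FPKM, above the highest Msh5 value of 2.68 FPKM.

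Mlh3 (ENSMUSG00000021245.16, chromosome 12, 85281294 to 85317373) encodes an endonuclease subunit of the MutL family. The 3 GFP libraries gave 5.12, 4.77 and 4.98 FPKM, and the 3 GFP-CCNB1IP1 libraries 5.07, 5.16 and 5.33 FPKM, from 395 to 521 implied fragments each. The lowest value was in GFP replicate 2 and the highest in GFP-CCNB1IP1 replicate 3, and the groups overlapped because GFP replicate 1 was above GFP-CCNB1IP1 replicate 1. The group means were 4.96 ± 0.173 and 5.19 ± 0.135 FPKM (SD, n = 3), a difference of 0.05 on the log2(FPKM + 1) scale (95% interval -0.10 to 0.20, limma, adjusted p = 0.786). On the FPKM + 1 scale that interval runs from 0.936 to 1.15 times the GFP level. Mlh3 was the most even of the 3 expressed members, with a coefficient of variation of 3.69% over the 6 libraries, where the standard error implied by the deposited bounds was 4.38 to 5.03% of each value.

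Pms2, a MutL gene of mismatch repair, was above Mlh3 in every library, by 1.48 to 2.07 times. Pms1, a further MutL gene, was lower than Mlh3, with a mean of 1.66 FPKM.

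**Figure D2:**
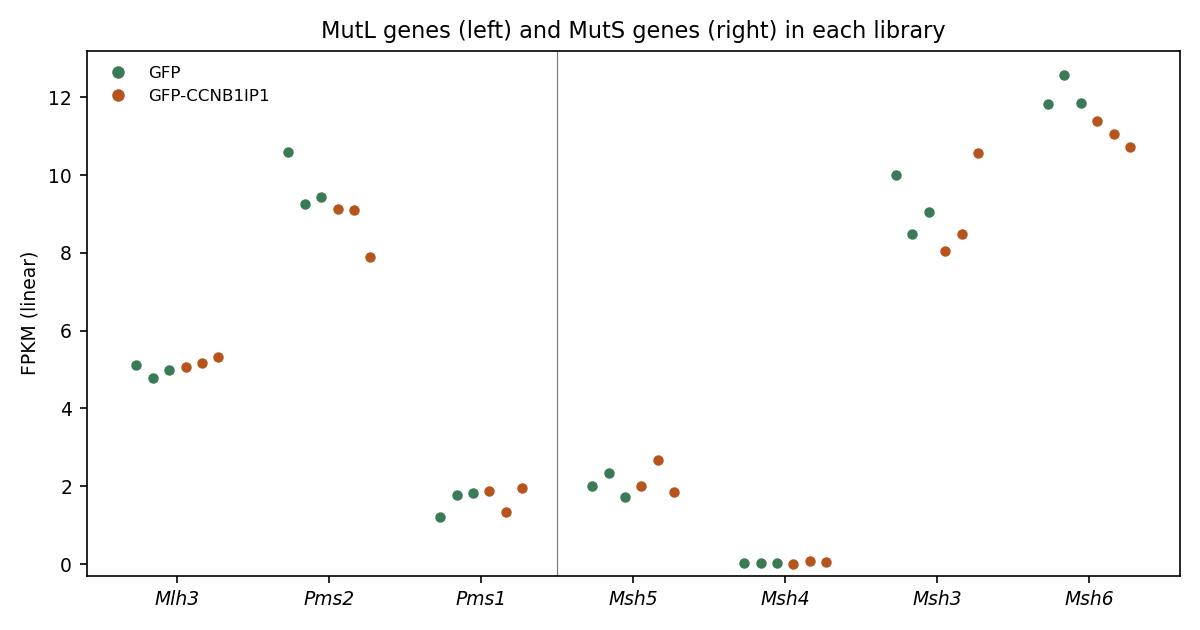
FPKM of the MutL genes Mlh3, Pms2 and Pms1 and the MutS genes Msh5, Msh4, Msh3 and Msh6 in each library, on a linear axis (green GFP, orange GFP-CCNB1IP1). Pms2 lies above Mlh3 in every library, Msh3 and Msh6 lie above 8 FPKM, Msh5 lies near 2 FPKM and Msh4 near 0.

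Spo11 (ENSMUSG00000005883.16, chromosome 2, 172819493 to 172835369), which makes the breaks, was above 0 in GFP replicate 3 alone, at 0.0329 FPKM. Dmc1 (ENSMUSG00000022429.12, chromosome 15, 79445698 to 79489310) read 0.0792 and 0.105 FPKM in GFP-CCNB1IP1 replicates 1 and 2 and was at 0 in replicate 3 of that group and in every GFP library. Its difference was 0.08 on the log2(FPKM + 1) scale (SE 0.039, limma, adjusted p = 0.654), the smallest p of the members. The deposited lower bounds of both Dmc1 values were 0. Implied fragments were at most 0.264 for Dmc1 and 0.0868 for Spo11.

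Sycp1 (ENSMUSG00000027855.14, chromosome 3, 102725815 to 102843416), the filament of the synaptonemal complex, read 3.66, 2.69 and 2.75 FPKM with GFP, and 3.86, 2.05 and 2.74 FPKM with GFP-CCNB1IP1, from 40.2 to 82.2 implied fragments each. The highest and the lowest value fell in the same group, and replicate 1 was the highest library of each group. The group means were 3.03 ± 0.543 and 2.88 ± 0.917 FPKM (SD, n = 3), a difference of -0.07 on the log2(FPKM + 1) scale (95% interval -0.59 to 0.44, limma, adjusted p = 0.924). That interval runs from 0.667 to 1.36 times the GFP level on the FPKM + 1 scale. The difference was 0.09 without GFP-CCNB1IP1 replicate 2 and 0.04 without GFP replicate 1.

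Among the 3 expressed members Sycp1 varied most between libraries. Its coefficient of variation over the 6 libraries was 22.9%, against implied standard errors of 11.0 to 15.8% of each value. Separate samples may differ by more than the error within a library, so the 2 figures are given as a description. The 3 genes lying within the Sycp1 locus, Gm42816, Gm33952 and Gm33866, were listed at 0 throughout.

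The other genes of the synaptonemal complex were lower than Sycp1. Its central element gene Syce2 had a mean of 0.253 FPKM and was below Sycp1 in all 6 libraries, by 5.99 to 24.1 times. The axial element gene Sycp3 had a mean of 0.0920 FPKM, and Syce3 and Tex12 were at 0 in every library. Of 12 other genes of the complex and of meiotic cohesin, Rec8 alone had a mean of at least 1 FPKM. Rec8, the meiotic kleisin of cohesin, read 29.9, 28.6 and 31.8 FPKM with GFP and 26.1, 26.6 and 27.5 FPKM with GFP-CCNB1IP1. It had the smallest p of this list and did not pass the test (limma, adjusted p = 0.457). Its groups did not overlap, as for 12.4% of all genes tested. Stag3, a cohesin subunit that works with Rec8 in meiosis, had a mean of 0.147 FPKM.

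In order of mean level the members ran Mlh3 (5.07 FPKM), Sycp1 (2.96), Msh5 (2.10), Ccnb1ip1 (0.0922), Msh4 (0.0324), Dmc1 (0.0307), Spo11 (0.00548), and then Rnf212 and Hfm1 at 0. The lowest Mlh3 value was above the highest Sycp1 value, and the lowest Msh5 value was above the highest Ccnb1ip1 value. Sycp1 and Msh5 overlapped, with Sycp1 the higher in 5 of 6 libraries and Msh5 the higher in GFP-CCNB1IP1 replicate 2. Neighbours from Ccnb1ip1 downward overlapped as well. Among genes with a mean of at least 1 FPKM the median of the means was 10.8 FPKM, so the 3 expressed members lay in the lower part of that range.

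Compared between groups, 0 of the 7 members that could be tested were called at an adjusted p under 0.05, where 0% of the 26841 genes tested were called (limma; smallest adjusted p 0.171). At an unadjusted p under 0.05 there were 0 members, against 2186 genes or 8.14% of those tested. The groups overlapped for all 7 members, where 12.4% of tested genes had groups that did not overlap. The difference was positive for 5 members and negative for Sycp1 and Spo11, with a median of 0.039 on the log2(FPKM + 1) scale beside a median of -3.52e-07 over all genes tested. Sycp1 had the widest of the 7 intervals. The intervals of Ccnb1ip1, Msh4, Dmc1 and Spo11 reflect values near 0 on a scale with 1 added, and say little about the relative change of those genes. With 0.1 added in place of 1, the SE of the Ccnb1ip1 difference was 0.456, against 0.073.

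**Figure D3:**
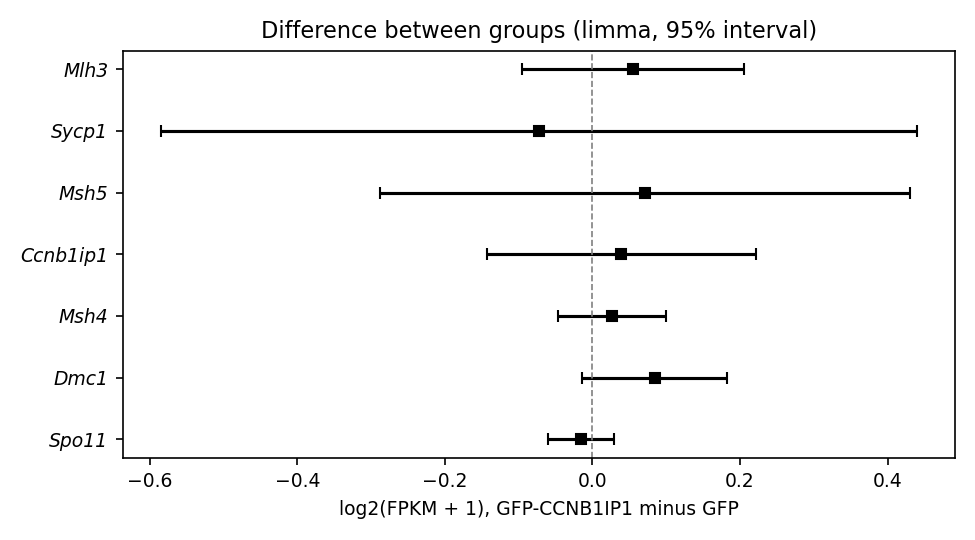
Difference between groups on the log2(FPKM + 1) scale, GFP-CCNB1IP1 minus GFP, for the 7 members above 0 in any library, with the 95% interval from limma (bars). All 7 intervals include 0, and that of Sycp1 is the widest, from -0.59 to 0.44.

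Leaving out a single library turned the sign of the Sycp1, Msh5 and Ccnb1ip1 differences, for Sycp1 and Msh5 with either of 2 libraries. Without GFP replicate 3, however, the Msh5 difference was all but 0, at -8.82e-06 with an SE of 0.159. The Spo11 difference rests wholly on GFP replicate 3, the 1 library where that gene was above 0, and has no value without it. Mlh3 stayed positive whichever library was left out, from 0.033 to 0.074 on the log2(FPKM + 1) scale. Sycp1 ranged from -0.248, without GFP-CCNB1IP1 replicate 1, to 0.089, without replicate 2 of that group. Msh5 ranged from -0.037 to 0.146 and Ccnb1ip1 from -0.015 to 0.111.

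**Figure D4:**
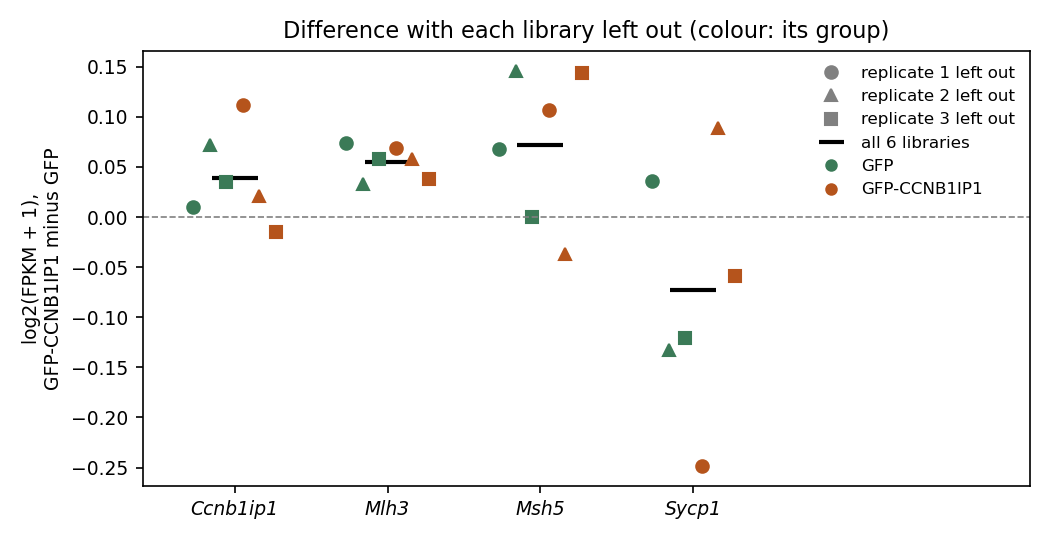
Difference between groups on the log2(FPKM + 1) scale for Ccnb1ip1, Mlh3, Msh5 and Sycp1 with all 6 libraries (black bar) and with each library left out (symbol shape for its replicate, colour for its group). The Mlh3 values all lie above 0, and the values of the other 3 genes lie on both sides of 0.

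Among 66 other genes of the pathway, grouped into 7 lists, 34 had a mean of at least 1 FPKM and 9 were at 0 in every library. None of the 57 tested was called, where 0% of all genes were (limma); at an unadjusted p under 0.05 there were 2 higher and 11 lower, against 3.96% and 4.18% of all genes tested. All 8 mismatch repair genes and all 10 genes that resolve joint molecules in mitotic cells had a mean of at least 1 FPKM, as did 10 of 14 strand exchange genes, while 3 of 9 other crossover factors, 3 of 10 break formation genes, 1 of 12 synaptonemal and cohesin genes and 1 of 5 meiotic entry genes did.

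**Figure D5:**
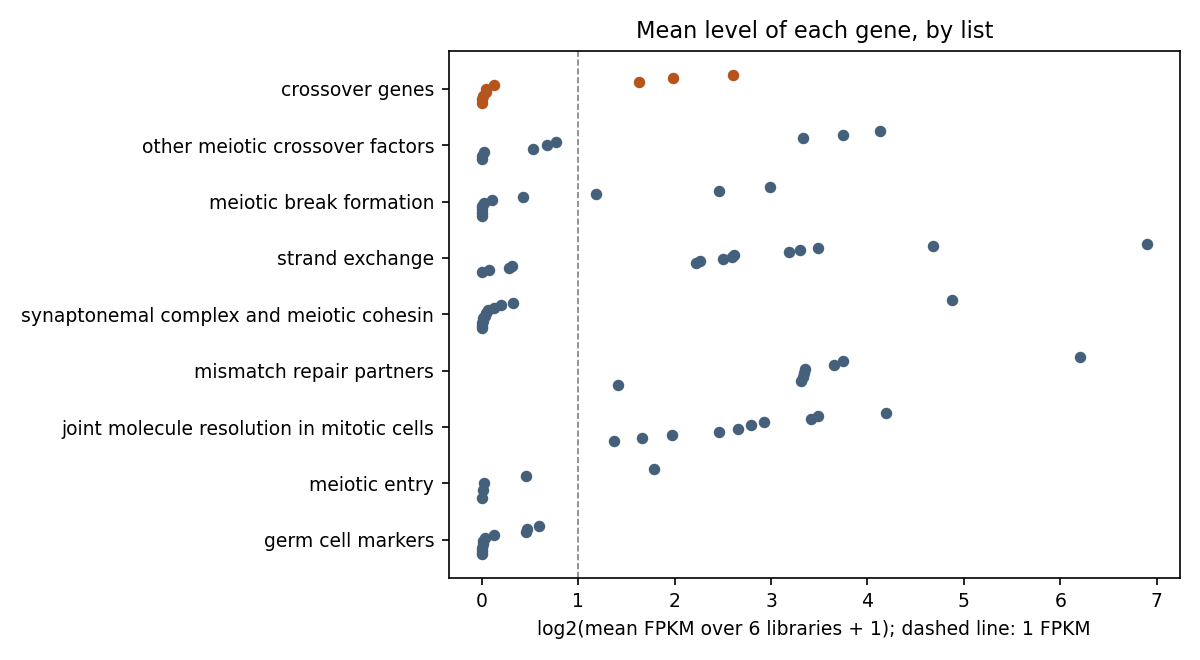
Mean level over the 6 libraries of each gene on the log2(FPKM + 1) scale (points), by list, with the 9 crossover genes in orange and a dashed line at 1 FPKM. Mismatch repair and mitotic resolution genes lie to the right of the line throughout, the germ cell markers all lie to its left, and the crossover genes lie on both sides.

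Among the other crossover factors, Cdk2 was highest. Cdk2, the cyclin-dependent kinase that marks crossover sites in meiosis and drives S phase in dividing cells, read 17.8, 18.1 and 16.6 FPKM with GFP and 15.6, 14.9 and 15.9 FPKM with GFP-CCNB1IP1. Cdk2 had the smallest p of this list and did not pass (limma, adjusted p = 0.462). Its groups did not overlap, as for 12.4% of all genes tested. The exonuclease gene Exo1 had a mean of 9.05 FPKM.

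Of the break formation genes, Prdm9, Trip13 and Rec114 had means above 1 FPKM. Prdm9, the histone methyltransferase that sets where meiotic breaks fall, read 6.68, 6.005 and 7.47 FPKM with GFP and 8.40, 7.23 and 5.72 FPKM with GFP-CCNB1IP1. Those groups overlapped (limma, adjusted p = 0.897), and every Prdm9 value was above every Mlh3 value. Trip13, an ATPase that also serves the spindle checkpoint, had a mean of 4.51 FPKM. Rec114, a partner of Spo11, had a mean of 1.27 FPKM, and its locus shares 5106 bases with Nptn, at a mean of 169.6 FPKM. Hormad2, a chromosome axis gene, had the smallest p of the list, with a mean of 0.0130 FPKM (limma, adjusted p = 0.698).

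Strand exchange genes included the highest of the 66, Swi5, with a mean of 118.1 FPKM, and its partner Sfr1, with 24.6 FPKM. Rad51ap1, a gene that stimulates strand exchange, read 12.01, 11.7 and 11.6 FPKM with GFP and 8.10, 9.10 and 8.65 FPKM with GFP-CCNB1IP1. Named for the smallest p of the list, Rad51ap1 had a difference of -0.41 on the log2(FPKM + 1) scale (SE 0.053, limma, adjusted p = 0.262). Its groups did not overlap, as for 12.4% of all genes tested. In this list 2 of 13 tested genes were higher and 7 lower at an unadjusted p under 0.05, where 3.96% and 4.18% of all genes tested were, and 0 passed, where 0% of all genes did.

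Among genes that resolve joint molecules in mitotic cells, the scaffold gene Slx4 had a mean of 17.3 FPKM, the nuclease gene Mus81 10.2 FPKM and the helicase gene Blm 9.67 FPKM. Eme1, the partner of Mus81, had the smallest p, with 5.65, 3.22 and 3.34 FPKM under GFP and 1.72, 1.75 and 1.88 FPKM under GFP-CCNB1IP1 (limma, adjusted p = 0.395). Its locus shares 221 bases with Lrrc59 and 198 with Mrpl27, both of which had higher levels. In the mismatch repair list Pcna, the replication clamp, was highest with a mean of 72.6 FPKM, and Msh6 had the smallest p (limma, adjusted p = 0.581). In the meiotic entry list Ythdc2, an RNA helicase, was the 1 gene with a mean above 1 FPKM, at 2.46 FPKM; Dazl had 0.370 FPKM and Meioc 0.0162 FPKM, and Stra8 was above 0 in GFP replicate 1 alone, at 0.0434 FPKM (limma, adjusted p = 0.779).

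The cells of every library expressed division genes. Ccnb1, the cyclin B1 that gave Ccnb1ip1 its name, read 29.5, 22.05 and 26.1 FPKM with GFP and 19.5, 16.2 and 19.9 FPKM with GFP-CCNB1IP1, and did not pass (limma, adjusted p = 0.453). Of 6 genes of cyclin B1, its partners and division, 6 had lower means in the GFP-CCNB1IP1 group, 3 of them at an unadjusted p under 0.05, where 4.18% of all genes tested were lower at that level. None passed, where 0% of all genes did. The median difference was -0.31 on the log2(FPKM + 1) scale, beside -3.52e-07 over all genes tested. The list was chosen with earlier results of these data known, so these figures describe it and are not a test. Cdk1 was highest with a mean of 91.8 FPKM, followed by Pcna and by Top2a with 56.6 FPKM, and Mki67 had the smallest p (limma, adjusted p = 0.218). In bulk RNA, fewer dividing cells and less RNA per cell cannot be told apart.

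No pair of the 3 expressed members was positively correlated across libraries. Over the 6 libraries, Pearson correlations of log2(FPKM + 1) were -0.54 for Sycp1 with Msh5, -0.17 for Mlh3 with Msh5 and -0.03 for Mlh3 with Sycp1. Among 13231 genes with a mean of at least 1 FPKM, those most like Mlh3 were Zfp511 (r = 0.993) and Tmem151b (r = 0.987), those most like Msh5 were Klf3 (r = 0.995) and Gm3325 (r = 0.984), and those most like Sycp1 were Prr5 (r = 0.990) and Coa3 (r = 0.989). With 6 libraries, 72 to 115 genes reached an r of at least 0.9 with each member, and all of these points share the depth of their library. For Msh5 the coefficient of variation was 16.6%, against implied standard errors of 18.0 to 31.2% of each value. Mlh3 too varied no more than its implied standard errors, so these correlations cannot tell whether the members move together.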

How the data were processed

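Each library has 1 deposited table, which gives FPKM by gene and its lower and upper bounds, per the file headers. The submitters' processing notes name HISAT2 and Cufflinks, with no version; the sources used here give no build, annotation or strand. Polyadenylated RNA was captured on oligo-dT beads, per the labels' protocols. Rows with the same identifier (38 identifiers) were summed, and starts were read as counted from 0 and given from 1.

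Genes above 0 in any library (26841) were tested on log2(FPKM + 1) by limma 3.58.1 (R 4.3.3; trend on the mean) and Benjamini-Hochberg adjustment over all of them; calls are at an adjusted p under 0.05. A fold change on this scale understates the change of low genes. Depth is not given: relative depth came from the deposited upper bound, taken as 2 standard errors above the value, over 2245 genes. Implied fragments are the square of the value divided by that standard error. These readings treat the bounds as counting error alone, which was not tested. Simulated data for this comparison held 26709 to 26714 genes in each of 5 draws. Recovery was 29.8% for genes changed by 0.5 on the log2 scale and 72.6% for those changed by 1. Across the draws 51 calls were false. Changed genes were drawn only from those with a mean log2(FPKM + 1) above 1, and recovery was not broken down by expression level. Recovery therefore cannot be carried over to Ccnb1ip1, Msh4, Dmc1 and Spo11, read at a trace, since no gene at that level was changed.

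Members and lists were chosen with earlier results of these data known. Named were all members, the 3 highest genes and the smallest p of each pathway list, the highest gene of each marker list, cyclin B1, loci overlapping a member, and the 2 genes most correlated with each expressed member. Msh3, Pms1, Pms2, Sycp3, Syce3, Tex12, Mael, Tex101, Dbh and the genes overlapping Rec114 and Eme1 were chosen after their values were seen. Spo16, Top6bl and Six6os1 were matched by older names. Some list genes are counted but not reported here.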

Additional observations from a re-analysis of the deposited data

How the results depend on the processing

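Alternatives were pseudocounts of 0.1 and 5, filters at a mean FPKM of 0.1 and 1, median-of-ratios scaling, TPM, limma without the trend, a replicate block and each library left out in turn. Over 89 such fits of members, 84 kept their direction and none passed (lowest adjusted p 0.476). The 5 that turned were Sycp1 without GFP replicate 1 (0.036) or GFP-CCNB1IP1 replicate 2 (0.089), Msh5 without GFP replicate 3 (-8.82e-06) or GFP-CCNB1IP1 replicate 2 (-0.037), and Ccnb1ip1 without GFP-CCNB1IP1 replicate 3 (-0.015); the cause was not tested. Spo11 could not be fitted without GFP replicate 3, the 1 library where it was above 0. With filters at 0.1 and 1 FPKM, 1 gene was called in place of 0, with 18460 and 13231 genes tested, and 4 low members were left out. Leaving out a library gave from 0 to 9 called genes: 9 when GFP replicate 1 was absent, 4 for GFP replicate 3 and 1 for GFP-CCNB1IP1 replicate 1. Over the left-out libraries Sycp1 ran from -0.248 to 0.089, Msh5 from -0.037 to 0.146 and Ccnb1ip1 from -0.015 to 0.111. The 3 members at 1 FPKM or more were 3 under every alternative run. Correlations of same-numbered deviations were 0.0226, -0.0093 and -0.0107, which with 3 libraries in each group do not settle whether replicate numbers mark pairs. With the number as a replicate block 0 genes were called, Mlh3 differing by 0.055 (limma, adjusted p = 0.827), Sycp1 by -0.073 and Msh5 by 0.071. The SE with the block was 0.121 for Sycp1, against 0.205 without it, and 0.072 for Mlh3, against 0.060. The number of libraries and the wide deposited bounds of Msh5 and Sycp1 limit what can be seen.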
